A study of Mus musculus with 157 samples.

Results

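The DNA damage response that B cells kept when the kinase ATM was inhibited was measured as the contrast between cells given etoposide together with the ATM inhibitor KU55933 (LPS+ET+KU) and activated cells that received neither drug (LPS). Gradients were chosen by treatment name and by the tag LUL15 to LUL18 in the column names. The tag is called a pool here, and the labels do not say what it stands for. The 13 fraction libraries (4 to 16) of each sucrose gradient were summed. This gave 104 libraries in 8 gradients, 4 of each treatment, of 157 libraries and 12 gradients in all. Cells were splenic B lymphocytes of C57BL/6Babr mice in LPS at 10 µg/ml for 48 h. In LPS+ET+KU cells, KU55933 at 10 µM was added after 47 h of LPS, and etoposide at 20 µM followed 1 h later for 4 h. A further set of 4 gradients (LPS+ET, 48 h of LPS and then etoposide alone for 4 h) was used for the variance estimate and to test where the inhibitor changed a response. No gradient had the inhibitor without etoposide, so effects of KU55933 itself and of etoposide under KU55933 cannot be told apart. By these times, cells given etoposide were also in culture longer than LPS cells. Culture time and treatment cannot be told apart in contrasts with LPS.

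Etoposide traps topoisomerase II on DNA, which leaves double-strand breaks. ATM is the kinase that is recruited to such breaks and phosphorylates p53, its inhibitor Mdm2, the checkpoint kinase Chk2 and histone H2AX, and the related kinases ATR and DNA-PK can phosphorylate some of the same substrates. Stabilised p53 induces genes for cell cycle arrest, for its own feedback control and for cell death, and p21, the product of Cdkn1a, prevents phosphorylation of the retinoblastoma family, whose complexes then silence genes of mitosis. LPS binds Toll-like receptor 4 and drives mouse B cells into the cell cycle and towards antibody secretion, with NF-kB and interferon regulatory factors downstream of the receptor.

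Polyadenylated 3′ ends were counted in each fraction, and a value is the sum of an mRNA's counts over the fraction libraries. A change can come from mRNA abundance, from ribosome association or from the differing depths of the fraction libraries, which weight the sum. Levels are given in CPM, counts per 1000000 after scaling each gradient to its TMM library size, and sets of 4 values are listed in the order of pools LUL15, LUL16, LUL17 and LUL18. Totals of the 8 compared gradients ran from 8913999 to 21449781 counts, and their single libraries from 14724 to 4170688 (median 890020). Monosome fractions 4 to 7 held 28.4 to 34% of the counts in LPS+ET+KU and 13.7 to 17.6% in LPS, without overlap (exact permutation test, two-sided, p = 0.0286, the smallest that 4 against 4 can give). With gradients paired by pool, the exact sign-flip permutation test gave p = 0.125, the smallest that 4 pairs can give and above any threshold. Heavy polysome fractions 11 to 16 held 37.6 to 55.5% and 52.3 to 62.4%. The same RNA concentration went into each library, so these shares do not measure how much mRNA a fraction held. The LPS+ET+KU gradient of pool LUL16 stood apart in many of the values that follow: the median log2 change over all p53 targets listed was 0.76 in this pool and 1.28 to 1.48 in the other 3, that of G2 and M phase genes was -0.75 against -1.34 to -1.62, and mRNAs of mitochondrial genes changed by a median of -0.94 against 0.40 to 0.92. Results are therefore also given without this pool where that matters. The LPS+ET gradient of LUL16 stood apart as well, with 29% of its counts in monosomes and 30.4% in heavy polysomes. The other 3 LPS+ET gradients held 10.85 to 12.98% and 60.55 to 68.22%. Its total of 6404957 counts was the lowest of the 12 gradients, and contrasts with LPS+ET include it. The labels do not say whether gradients came from separate cultures or animals, so p-values measure the spread between these gradients.

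**Figure D1:**
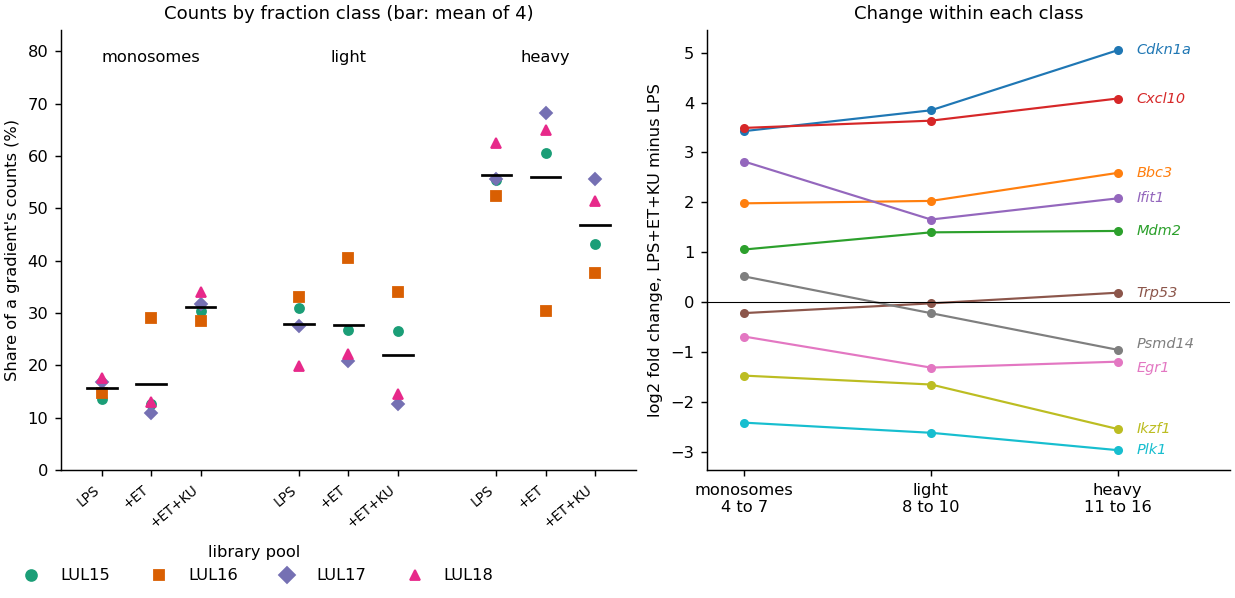
The left panel plots the share of each gradient's counts in monosome, light and heavy polysome fractions, with 1 symbol per gradient and bars at the mean of 4. Monosome shares of the 4 LPS+ET+KU gradients lay above those of the 4 LPS gradients. The right panel plots the log2 fold change of LPS+ET+KU against LPS for 10 mRNAs within each class, where Cdkn1a was above 0 and Plk1 below 0 in all 3.

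Of 12755 genes tested with edgeR, 3589 (28.1%) differed between LPS+ET+KU and LPS at an adjusted p under 0.01, the threshold used throughout for a call. Of these, 1898 genes (14.9%) were higher and 1691 (13.3%) lower under damage with the inhibitor, and for 1795 the log2 change exceeded 1 in size. For 3373 genes (26.4%) the ranges of the 4 LPS+ET+KU and the 4 LPS values were separate. Without the pool as a block, 1361 genes (10.7%) were called, all of them among the 3589. Leaving pool LUL16 out of the fit raised the count to 5444 genes. A limma fit that gave every fraction the same weight called 2334 of 12610 genes, 66.2% of them higher, where the edgeR calls were 52.9% higher. The test and the gene filter also differed between these fits. Etoposide alone changed 3403 genes (26.7%) against the same LPS gradients. The direct contrast of LPS+ET+KU with LPS+ET called 811 genes (6.36%), and 449 of the 3589 were among them, 160 higher and 289 lower with the inhibitor. These differences leaned on the pool block: of the 811 genes, 58 were called without it, and of 100 named or listed genes among the 811, 17 were. Differences from LPS+ET that were lost without the block are given with that p.

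**Figure D2:**
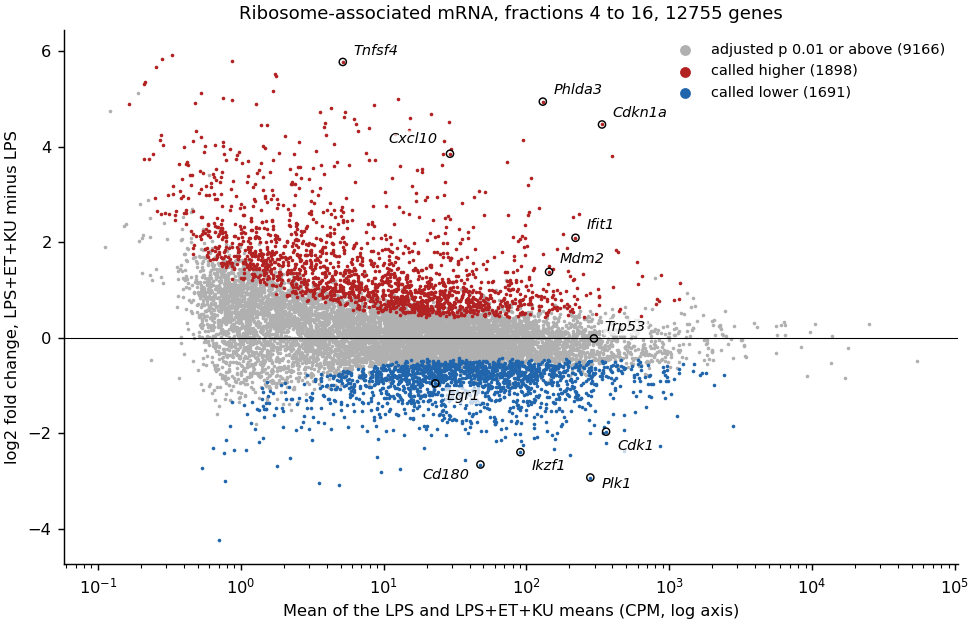
Each point is 1 of 12755 genes, with the mean of the LPS and LPS+ET+KU levels on a log axis (CPM) and the log2 fold change on the vertical axis. The 1898 genes called higher are red, the 1691 called lower are blue, and 12 mRNAs are named, from Tnfsf4 at 5.78 to Plk1 at -2.93.

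Most listed p53 target mRNAs were higher than in LPS under ATM inhibition. The paper reports that KU55933 prevented the rise of p53 protein with etoposide and reduced its phosphorylation and the Gadd45a and p21 proteins. It also reports that the inhibitor blocked the expression changes of etoposide only in part. By its account, transcriptomes with KU55933 lay closer to etoposide than to control, more so for ribosome-associated mRNA. Whether p53 drove the mRNA changes below was not tested. Of 37 tested targets in 4 lists, 26 were called higher and 3 lower, with a median log2 change of 1.18 where the median over all genes was 0.07. Their summed level was 1130 to 1224 CPM in LPS and 2610 to 4097 CPM in LPS+ET+KU. Of the 37, 78.4% were called in either direction, beside 28.1% of all genes. Without the pool block, 19 of the 26 rises and 1 of the 3 falls were still called. The direct contrast found 9 of the 37 lower than with etoposide alone and none higher at the threshold, and without the block 1 lower. Over all 12755 genes, it called 458 lower and 353 higher with the block.

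Arrest genes had the largest changes. Cdkn1a (chr17:29090979-29100722), the gene of the cyclin-dependent kinase inhibitor p21, measured 26.9, 24.3, 27.1 and 35.1 CPM in LPS and 624, 392, 719 and 856 CPM in LPS+ET+KU. Every damaged gradient thus lay more than 10-fold above every LPS gradient, with LUL16 the lowest. The log2 fold change was 4.47 ± 0.16 (SE, n = 4 against 4, edgeR adjusted p = 2.0e-09). With etoposide alone it was 4.61, and the difference of -0.14 ± 0.14 did not pass the threshold (adjusted p = 0.53). Phlda3, which encodes an inhibitor of Akt signalling, rose from 9.71, 8.01, 7.13 and 6.71 CPM to 380, 156, 220 and 255 CPM (log2 4.95 ± 0.19, adjusted p = 2.8e-09). Zmat3, an RNA-binding p53 target, rose from 31.3 ± 1.95 to 213 ± 54.2 CPM (SD, n = 4). Sesn2, a stress-induced inhibitor of mTORC1, rose by 2.10 on the log2 scale and was the arrest gene that differed from etoposide alone (-0.79 ± 0.14, adjusted p = 0.0022, and 0.20 without the block). Plk2 (log2 3.88), Trp53inp1 (1.90), Gadd45a (1.1) and Btg2 (1.02) completed the 8 called higher of 10. Gadd45a and Btg2 were not called without the pool block (adjusted p = 0.043 and 0.019). Sesn1 (-0.53, adjusted p = 0.010) and Plk3 (-0.20, adjusted p = 0.46) did not pass.

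The promoter of Cdkn1a is shown because it was the only one of this group with a match to the p53 response element within 250 bases before to 50 after the start. The search took 2 copies of the 10-base consensus on either strand, up to 13 bases apart, in RefSeq promoters of build GRCm38.p6, which held 26 of the 37 genes by symbol. Capitals mark the match.
Cdkn1a (chr17:29090879-29090978, plus strand): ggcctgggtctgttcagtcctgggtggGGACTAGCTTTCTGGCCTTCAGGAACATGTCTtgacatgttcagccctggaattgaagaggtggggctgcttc
This was 1 of 34 promoters of these genes (2.94%), and 24 of all 32851 promoters (0.0731%) held a match. Most p53 sites known in other genes lie outside such windows, and the count says nothing about binding.

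Of the 5 feedback genes, 4 were called higher and 1 lower, and 3 were called lower than with etoposide alone. Mdm2, the ubiquitin ligase that degrades p53, measured 81.8, 80.5, 71.5 and 77.2 CPM in LPS, 419, 309, 467 and 444 CPM in LPS+ET and 218, 128, 256 and 239 CPM in LPS+ET+KU. The 3 groups did not overlap. Its log2 change was 1.38 ± 0.17 under the inhibitor and 2.36 without it, a difference of -0.98 ± 0.17 (adjusted p = 0.0020, and 0.037 without the block). Ccng1, which recruits phosphatase 2A to Mdm2, rose by 2.53 and was 0.81 ± 0.18 lower than with etoposide alone on the log2 scale (adjusted p = 0.0084, and 0.14 without the block). Ppm1d, the phosphatase Wip1 that reverses ATM and p53 phosphorylation, rose by 0.98 and differed by -1.15 ± 0.13 (adjusted p = 1.3e-04). Rchy1, another p53 ubiquitin ligase, rose by 0.54 and lost its call without the block (adjusted p = 0.049), whereas the ligase gene Rfwd2 (Cop1) fell by 0.64.

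Of the 11 death genes, 8 were called higher, and 3 of these were below etoposide alone at the threshold. Bbc3 (PUMA), a BH3-only activator of apoptosis, measured 14.7, 18.1, 9.51 and 14.0 CPM in LPS and 83.4, 62.6, 53 and 81.0 CPM in LPS+ET+KU. The groups lay far apart, and the log2 change was 2.31 ± 0.16 (adjusted p = 3.0e-07) beside 2.19 with etoposide alone. Pmaip1 (NOXA) rose from 65.0 ± 16.8 to 398 ± 123 CPM, with a difference from etoposide alone of 0.04 ± 0.15 (adjusted p = 0.89). For Bbc3 that difference was 0.13 ± 0.15 (adjusted p = 0.61). The death receptor genes Fas (log2 1.80) and Tnfrsf10b (3.27) rose and were 1.18 ± 0.17 and 0.87 ± 0.14 lower than in LPS+ET (adjusted p = 7.3e-04 and 0.0015, and 0.044 and 0.099 without the block), and the membrane protein gene Perp rose by 3.83 from 0.133 CPM and was lower by 1.96 ± 0.32 (adjusted p = 0.0017, and 0.052 without the block). Bax, the pore-forming effector, rose from 227 ± 22.3 to 413 ± 73.3 CPM (log2 0.85 ± 0.15), a call that was lost without pool LUL15 or without pool LUL18. Ei24 (1.98) and Apaf1 (0.89), the apoptosome scaffold, were the other rises of 8 among 11 genes, with no call without the block (adjusted p = 0.013 and 0.017). Eda2r (1.18), Dapk1 (1.29) and Aen (0.96) did not pass (adjusted p = 0.012, 0.069 and 0.013).

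In the repair and metabolism list, 6 of 11 genes were called higher and 2 lower. Ephx1, an epoxide hydrolase, rose from 21.5 ± 6.71 to 128 ± 32.9 CPM, 0.75 ± 0.17 below etoposide alone on the log2 scale (adjusted p = 0.0086, and 0.18 without the block). The translesion polymerase gene Polk rose by 1.92, whereas that of the related polymerase eta, Polh, fell by 1.08 with no call in the fit without the block (adjusted p = 0.080). Xpc (1.03), Gls2 (3.11), Rrm2b (0.78) and Gdf15 (0.74) rose, the last 2 with no call without the block (adjusted p = 0.10 and 0.056). The counted 3′ end of Rrm2b lies in an annotated intron, 1802 bases from the nearest transcript end. Gpx1, glutathione peroxidase, fell by 0.86 (adjusted p = 0.057 without the block and above 0.01 without any of pools LUL15, LUL17 or LUL18).

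**Figure D3:**
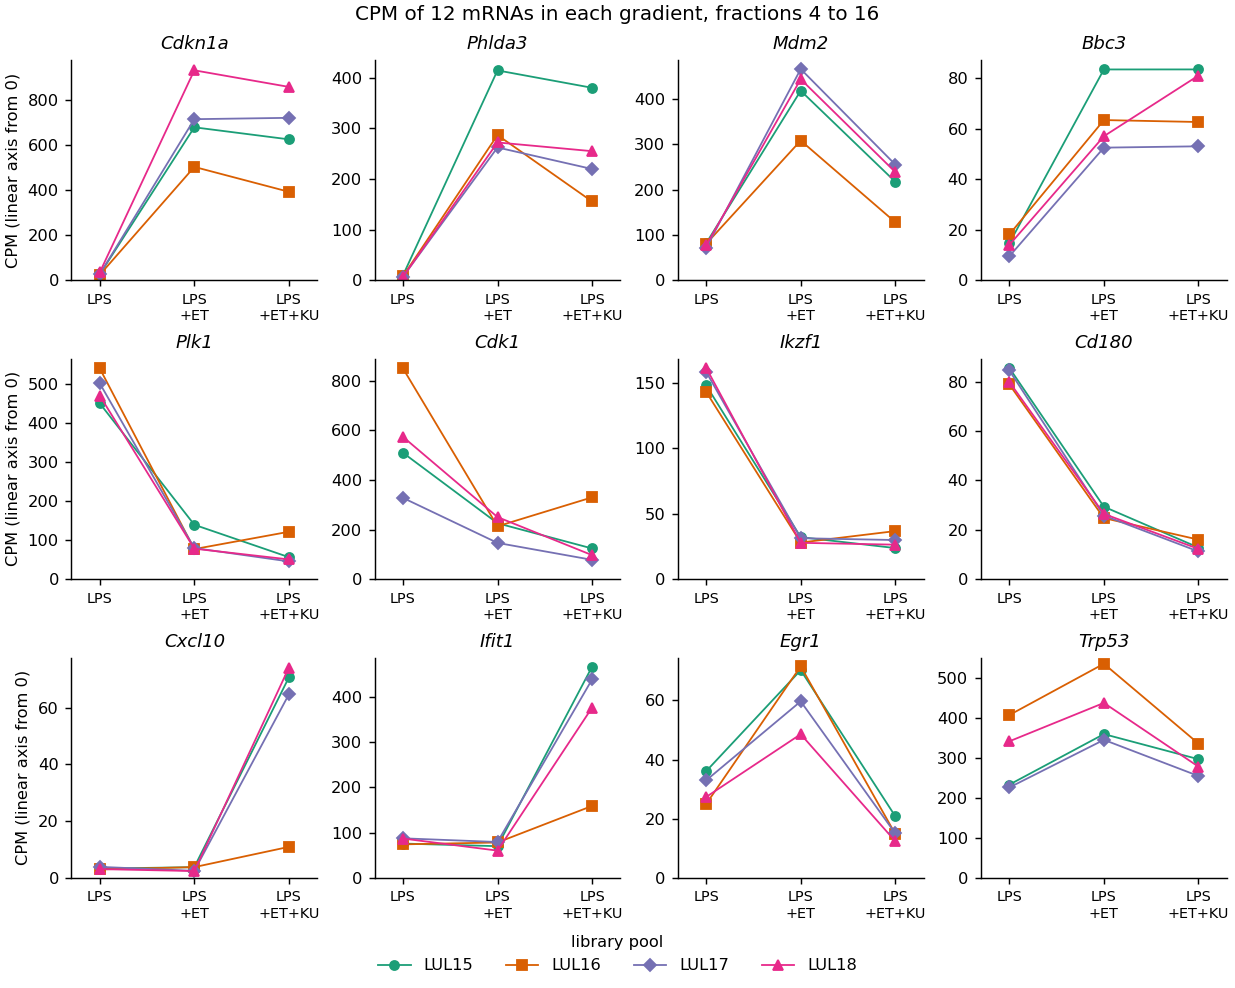
Each panel plots the CPM of 1 mRNA in the 12 gradients, summed over fractions 4 to 16, on a linear axis that starts at 0, with lines that join the 3 gradients of a pool. Cdkn1a and Bbc3 reached similar levels with and without KU55933, Mdm2 lay between LPS and LPS+ET, and Cxcl10 and Ifit1 were high in LPS+ET+KU, where pool LUL16 was the lowest.

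Beyond the listed targets, the 12 largest rises that met the naming rule were mostly in genes with low levels in LPS cells. Tnfsf4 (OX40 ligand) had 8 counts over the 4 LPS gradients and 523 over the 4 LPS+ET+KU gradients, a CPM ratio of 57.0 (95% interval 28.7 to 133, counting error only). Sulf2, a heparan sulphate sulphatase gene, measured 0.647, 0.398, 0.453 and 0.497 CPM in LPS and 21.2, 5.18, 20.6 and 19.6 CPM in LPS+ET+KU. Pool LUL16 was again the lowest of the treated gradients. The order by log2 change continued with 9530053A07Rik (5.00), Phlda3, Sulf2 (4.88), Fam212b (4.69), Acot1 (4.63), Zfp365 (4.61), Ckmt1 (4.58), Rarg (4.52), Ak1 (4.48), Cdkn1a and Kank3 (4.41). Rarg encodes a retinoic acid receptor, Acot1 an acyl-CoA thioesterase, and Ak1 and Ckmt1 encode adenylate and mitochondrial creatine kinases. Few LPS counts stood behind several of these folds, 4 to 9 per gradient for Sulf2 and 3 to 9 for Ckmt1, so the fitted size depends on the prior count. All 12 kept their call under each of 21 alternative settings. The naming rule had already required a call without the block and the same sign in all pools, which favours this. Zfp365 (-1.50 ± 0.29), Ckmt1 (-1.70 ± 0.27), Kank3 (-1.12 ± 0.20) and Sulf2 (-1.04 ± 0.20) were lower than with etoposide alone (adjusted p = 0.0045, 0.0013, 0.0029 and 0.0039), with no call without the block (adjusted p = 0.18, 0.061, 0.22 and 0.20).

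Genes of mitosis fell together. Of 57 tested G2 and M phase genes, 45 were called lower and 2 higher, with a median log2 change of -1.36. Their summed level was 9290 to 10670 CPM in LPS and 3013 to 5655 CPM in LPS+ET+KU, with no overlap. Calls in either direction made up 82.5% of the list, beside 28.1% of all genes. Without the block 35 of the 45 falls were called, and without pool LUL16 47 genes were lower and 3 higher.

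Many mitotic promoters carry CCAAT boxes for the factor NF-Y and a cell cycle homology region (CHR, TTTGAA) that is bound by the DREAM and MuvB complexes. The 100 bases before the RefSeq start (build GRCm38.p6) are shown for the gene of the largest fall and for 3 further called genes, with matches to either motif on either strand in capitals.
Plk1 (chr7:122159335-122159434, plus strand): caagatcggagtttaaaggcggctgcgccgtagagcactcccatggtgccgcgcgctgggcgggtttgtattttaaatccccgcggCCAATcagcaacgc
Cdk1 (chr10:69352913-69353012, minus strand): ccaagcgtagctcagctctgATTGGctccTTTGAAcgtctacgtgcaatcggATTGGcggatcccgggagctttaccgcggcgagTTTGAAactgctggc
Cdc20 (chr4:118437344-118437443, minus strand): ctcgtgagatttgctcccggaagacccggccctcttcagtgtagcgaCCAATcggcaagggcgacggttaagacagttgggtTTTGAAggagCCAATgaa
Ube2c (chr2:164769829-164769928, plus strand): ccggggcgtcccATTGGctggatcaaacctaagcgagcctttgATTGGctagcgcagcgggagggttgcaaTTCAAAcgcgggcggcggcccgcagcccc
The table held promoters of 36 of the 45 genes called lower. Of their 39 promoters, 30 (76.9%) held TTTGAA and 33 (84.6%) held CCAAT within 250 bases before to 50 after the start, on either strand, where 17.9% and 37.4% of 32851 promoters did. Over all tested members, 65.4% of 52 promoters held TTTGAA and 78.8% held CCAAT. The 4 promoters of the 2 genes called higher all held CCAAT, and 0 held TTTGAA. The motifs do not overlap each other, and a match is not a bound site.

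Plk1 (chr7:122159437-122169875), the kinase that drives mitotic entry, had the largest fall. It measured 452, 541, 503 and 471 CPM in LPS and 56.2, 122, 45.3 and 50.5 CPM in LPS+ET+KU, so that even the LUL16 gradient lay well below all LPS gradients. The log2 change was -2.93 ± 0.27 (adjusted p = 2.6e-06), beside -2.41 with etoposide alone. Cdk1, the mitotic cyclin-dependent kinase, measured 510, 850, 328 and 574 CPM in LPS and 124, 330, 77.6 and 96.5 CPM in LPS+ET+KU. It was lower within each pool although the 2 groups overlapped (330 in LUL16 against 328 in LUL17), and its log2 change was -1.97 ± 0.24 (adjusted p = 3.6e-05). Cdkn3, a phosphatase that acts on cyclin-dependent kinases, fell from 63.2 ± 11.8 to 10.7 ± 2.49 CPM. The helicase gene Pif1 fell by 2.75, Ccnb1 (cyclin B1) by 2.16, Ube2c by 2.09, Aurka by 2.07 and Top2a, the isoform of topoisomerase II that etoposide traps in dividing cells, by 1.84. Top2a fell from 4314 ± 712 to 1294 ± 624 CPM. Cenpa, the centromeric histone, fell by 0.74 with no call without the block (adjusted p = 0.029). Psrc1 (2.48) and Gtse1 (1.79) were the 2 rises, and the product of Gtse1 binds p53. Cdc20, the activator of the anaphase-promoting complex, fell by 1.75 ± 0.25 under the inhibitor where the value with etoposide alone was -0.38 (adjusted p = 0.24), and the difference of -1.38 ± 0.25 was called (adjusted p = 0.0030, and 0.038 without the block). Aurkb differed in the same way (-0.94 and -0.07, difference -0.87 ± 0.16, adjusted p = 0.0029, and 0.041 without the block).

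Replication genes had a smaller median. Of 55 tested, 21 were called lower and 1 higher (40% in either direction, beside 28.1% of all genes), with a median of -0.35, and 6 of the 21 falls and none of the rises were called without the block. Falls numbered 6 without pool LUL18, 9 without LUL15, 10 without LUL17 and 32 without LUL16, and limma with equal weight of fractions called 7 falls with a median of -0.07. Pola1, the primase-associated polymerase, fell by 1.90 and Tk1, thymidine kinase, by 2.10, the latter from 2.32 CPM and with no call without the block (adjusted p = 0.041). Mcm6, a subunit of the replicative helicase, fell from 197 ± 16.5 to 117 ± 23 CPM (-0.76 ± 0.13, adjusted p = 3.9e-04; -0.35 and 0.109 with limma at equal weight), and Dnmt1, the maintenance methyltransferase, fell by 0.99 with no call without the block (adjusted p = 0.028). Fen1, the flap endonuclease of lagging strand synthesis, fell by 0.59 and was 0.89 ± 0.13 below etoposide alone (adjusted p = 8.0e-04, and 0.015 without the block).

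Among 50 genes of damage signalling and break repair, 3 were called higher and 10 lower (26% in either direction, near the 28.1% of all genes). H2afx, which encodes the histone that ATM phosphorylates at breaks, measured 102, 87.5, 209 and 178 CPM in LPS and 27.6, 64.3, 81.0 and 57.5 CPM in LPS+ET+KU. The groups did not overlap, and the log2 change of -1.32 ± 0.19 was smaller than the -2.30 of etoposide alone (difference 0.98 ± 0.20, adjusted p = 0.0053, and 0.25 without the block). Without the pool block its call was lost (adjusted p = 0.027). Wee1, the kinase that holds Cdk1 inactive, fell by 0.93 and was 0.63 ± 0.13 below etoposide alone (adjusted p = 0.0068, and 0.048 without the block). Rif1 (-1.16), Parp1 (-0.56) and Top2b (-0.71) fell, the last 2 with no call without the block (adjusted p = 0.025 and 0.057), and Parp1 was above 0.01 also without any of 3 pools. In limma with equal weight of fractions, Parp1 was at -0.05 and Top2b at -0.10 (adjusted p = 0.81 and 0.55). That fit called 2 genes of the list higher and 3 lower. Rad52 (1.16), Chek2 (0.91) and Rad51d (0.81) rose, with no call for the last 2 without the block (adjusted p = 0.035 and 0.032).

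Pro-survival Bcl2 had the largest fall in the BCL2 and caspase list, from 279, 266, 229 and 242 CPM to 58.4, 92.2, 45.1 and 50.2 CPM (-2.11 ± 0.17, adjusted p = 1.0e-06), where etoposide alone gave -2.03. The groups were separated by more than 2-fold in every pool. Of the 24 genes tested, 3 rose and 4 fell, a share of 29.2% beside 28.1% of all genes. Bcl2l11 (BIM), a BH3-only protein gene, rose by 1.09 and Casp6 by 0.65, while Bid fell by 1.22, Casp8 by 0.63 and Bak1 by 0.56. The Casp6, Casp8 and Bak1 calls were lost without the block (adjusted p = 0.095, 0.053 and 0.22).

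B cell identity genes were mostly lower. Of 33 tested, 18 were called lower and 4 higher (66.7%, beside 28.1% of all genes). The median was -0.74 (-0.81 with etoposide alone), and 11 of the 18 falls and 1 of the 4 rises were called without the block. Ikzf1 (Ikaros), a zinc finger factor of lymphoid development, measured 148, 143, 158 and 161 CPM in LPS and 23.6, 36.6, 29.8 and 26.2 CPM in LPS+ET+KU (log2 -2.40 ± 0.15, adjusted p = 1.3e-07). Bcl11a, another B lineage factor, fell from 341 ± 23 to 62.3 ± 7.34 CPM. Both came by the rule for the largest falls, and neither differed from etoposide alone at the threshold (adjusted p = 0.89 and 0.55). The list itself held falls in Irf8 (-1.76), Ebf1 (-1.76), Pou2af1 (-1.19) and Blnk (-0.90), an adaptor of the B cell receptor, as well as Cd22 (-1.99), Fcer2a (-1.86) and Lyn (-1.62). Bank1 (-2.38), a scaffold of B cell receptor signalling, Hdac9 (-2.26), Myo1e (-2.20) and the methylthioadenosine phosphorylase gene Mtap (-2.32) were among the 12 largest falls too. Hbb-bh1, an embryonic globin gene whose reads may be shared with other beta globin genes, fell by 2.80 and is uncertain for that reason.

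Some B cell genes differed between the 2 damaged groups. Cd180, a Toll-like receptor homologue that modulates LPS signalling, measured 85.6, 78.9, 84.6 and 79.9 CPM in LPS, 29.3, 24.7, 25.8 and 26.4 CPM in LPS+ET and 12.8, 16.0, 11.2 and 12.2 CPM in LPS+ET+KU. The 3 groups were separate, and the difference between the treated groups was -1.03 ± 0.14 (adjusted p = 4.5e-04). Its counted 3′ end lies in an annotated intron, 135 bases from the nearest transcript end. Sdc1 (CD138), the plasma cell proteoglycan, rose from 6.19, 7.5, 4.08 and 4.06 CPM to 24.2, 12.2, 12.3 and 13.7 CPM, and reached 82.7, 55.1, 40.6 and 58.0 CPM with etoposide alone (difference -1.93 ± 0.18, adjusted p = 2.8e-05). Irf4, a factor of plasma cell differentiation, fell by 0.98 where etoposide alone gave 0.11 (adjusted p = 0.48), a difference of -1.09 ± 0.12 (adjusted p = 8.4e-05, and 0.013 without the block). Hnrnpa2b1, a splicing factor gene, fell from 1762, 1591, 1399 and 883 CPM to 597, 174, 264 and 234 CPM and was 1.26 ± 0.21 below etoposide alone (adjusted p = 0.0018, and 0.12 without the block).

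**Figure D4:**
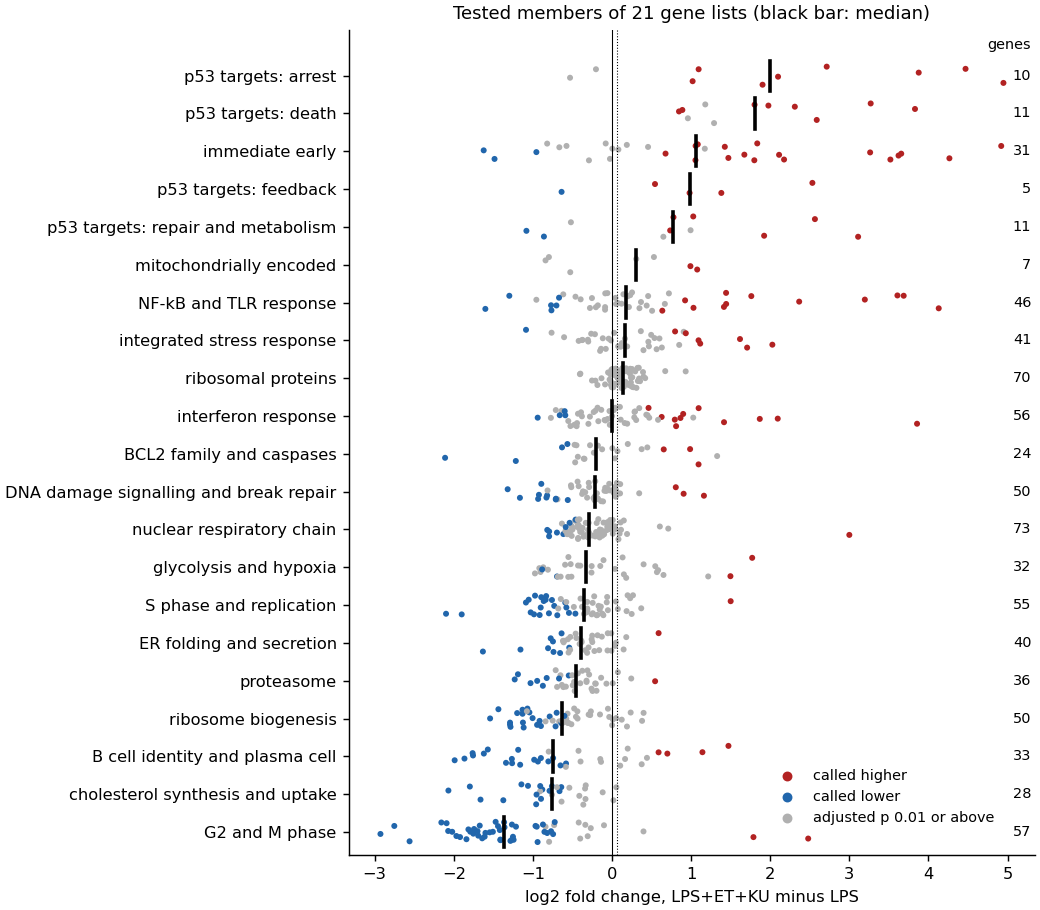
Each point is a tested member of 1 of 21 gene lists, placed by its log2 fold change (LPS+ET+KU minus LPS), with red for genes called higher and blue for genes called lower. The black bar is the list's median and the dotted line the median over all genes. The p53 arrest list lies farthest to the right (median 2.00) and the G2 and M phase list farthest to the left (median -1.36).

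Immediate early genes, which are transcribed within minutes of a signal, were mostly higher. Of 31 tested, 17 were called higher and 3 lower (64.5%, beside 28.1% of all genes), with a median of 1.06. Without the block, 13 of the rises and 2 of the falls were called. Nr4a1 (Nur77), an orphan nuclear receptor, measured 79.3, 81.0, 27.6 and 81.8 CPM in LPS and 350, 339, 152 and 335 CPM in LPS+ET+KU (log2 2.17 ± 0.16, adjusted p = 4.4e-07). Pool LUL17 was the lowest in both groups, and the rise was of similar size in each pool. Junb rose from 186 ± 51.3 to 661 ± 153 CPM, Jun by 1.80, Fos by 3.62 from 0.463 CPM, and Ier5 by 1.06. Fosl2, an AP-1 subunit, rose from 1.17 ± 0.50 to 23 ± 2.29 CPM and was 0.94 ± 0.19 above etoposide alone (adjusted p = 0.0056, and 0.067 without the block). The MAP kinase phosphatase genes Dusp4 (2.11) and Dusp5 (1.67) and the stress factor Atf3 (1.05) rose under the inhibitor, and were 1.51, 1.05 and 1.06 higher than with etoposide alone (adjusted p = 1.2e-04, 0.0049 and 1.9e-04, and for Dusp5 0.037 without the block). Myc fell by 1.62 in LPS+ET+KU and by 1.69 in LPS+ET.

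Egr1 went the other way. It encodes a zinc finger factor downstream of ERK and serum response factor. It measured 36, 24.9, 33 and 27.3 CPM in LPS, 70.2, 71.5, 59.7 and 48.6 CPM in LPS+ET and 20.8, 14.8, 15.0 and 12.4 CPM in LPS+ET+KU. All LPS+ET gradients lay above, and all LPS+ET+KU gradients below, the LPS gradients. The log2 changes were 1.04 ± 0.14 and -0.96 ± 0.14, both called, and the difference was -2.0 ± 0.14 (adjusted p = 5.9e-06). P2rx7, an ATP-gated channel gene, was among the 5 mRNAs by the naming rule that lay farthest below etoposide alone (-1.73, adjusted p = 2.7e-04, and 0.031 without the block). It rose from 2.23, 1.48, 1.59 and 3.07 CPM to 25.6, 6.54, 19.1 and 22.8 CPM, and LPS+ET gradients held 57.4, 47.4, 52.9 and 68.8 CPM. Mab21l2 (difference -1.85 ± 0.20, adjusted p = 8.4e-05, and 0.22 without the block) and the glutaryl-CoA dehydrogenase gene Gcdh (-1.73 ± 0.21, adjusted p = 2.0e-04, and 0.074 without the block) completed the group with Sdc1 and Egr1, and the rise of Gcdh against LPS (1.14) had no call without the block (adjusted p = 0.058). For Egr2 the difference was -2.03 ± 0.36 (adjusted p = 0.0028, and 0.034 without the block), with levels of 0.628, 1.63 and 0.379 CPM in LPS, LPS+ET and LPS+ET+KU.

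Several interferon-response and chemokine mRNAs were far higher with the inhibitor than with etoposide alone. Cxcl10 (chr5:92346638-92348889), a chemokine for activated lymphocytes, measured 3.24, 2.96, 3.85 and 3.06 CPM in LPS, 3.75, 3.76, 2.44 and 2.37 CPM in LPS+ET and 70.6, 10.9, 64.7 and 74.1 CPM in LPS+ET+KU. The LUL16 gradient rose far less than the other 3. The log2 change was 3.86 ± 0.41 (adjusted p = 1.1e-05), 4.38 without pool LUL16, and -0.21 with etoposide alone (difference 4.07 ± 0.43, adjusted p = 8.3e-05). Ifit1, an interferon-induced RNA-binding protein gene, went from 75.7, 73.9, 87.3 and 86.8 CPM to 467, 159, 439 and 376 CPM, while LPS+ET gradients held 60.1 to 79.2 CPM. Its difference between the treated groups was 2.26 ± 0.24 (adjusted p = 8.4e-05). Ccl5, a chemokine for T cells, rose from 31.4, 36.7, 28.9 and 32.1 to 173, 156, 147 and 183 CPM, with no weak pool (log2 2.37 ± 0.17, difference 2.13 ± 0.17, adjusted p = 1.0e-05). Ccrl2, an atypical chemokine receptor, rose by 3.20 ± 0.25, where etoposide alone gave a rise of 0.92, and Neurl3 by 1.28 ± 0.16. Neurl3 encodes a ubiquitin ligase, and it fell by 0.85 with etoposide alone.

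The interferon list as a whole was near the background. Of 56 genes, 11 were called higher and 4 lower (26.8% in either direction, beside 28.1% of all genes), and the median was -0.01. The counts depended on the gradients: 21 were higher and 5 lower without pool LUL16, and 3 higher and 0 lower without LUL15 or without LUL18. The fit without the block called 4 higher. Against LPS+ET, however, 15 genes were higher and none lower at the threshold, and 5 of the 15 were called without the block. Over all genes, 353 of 12755 were higher and 458 lower in that contrast. Rsad2 (log2 1.87 against LPS) and Irf7 (1.42), which amplifies interferon induction, rose against LPS and were 2.10 ± 0.16 and 1.29 ± 0.28 above LPS+ET (adjusted p = 8.3e-06 and 0.0074, and for Irf7 0.055 without the block). Ifit2 rose by 0.63 against LPS, with no call without the block (adjusted p = 0.11), and fell by 1.43 with etoposide alone. Ifit3 measured 27.9 ± 11.8, 5.72 and 25 ± 13.5 CPM in LPS, LPS+ET and LPS+ET+KU, so that its level with the inhibitor did not differ from LPS at the threshold (adjusted p = 0.51) while the level with etoposide alone was called lower. The falls Samhd1 (-0.59) and Sp100 (-0.60) lost their call without the block (adjusted p = 0.050 and 0.31). The response element of interferon-stimulated genes has a core of 2 GAAA blocks separated by any 2 bases, and it is shown in capitals, read on either strand, for the 2 genes of this list with the largest rise. The Cxcl10 window is the stretch 250 to 151 bases before the RefSeq start and the Ifit1 window the 100 bases before it (build GRCm38.p6).
Cxcl10 (chr5:92349040-92349139, minus strand): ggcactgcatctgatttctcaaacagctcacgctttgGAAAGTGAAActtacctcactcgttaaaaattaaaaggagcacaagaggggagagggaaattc
Ifit1 (chr19:34640789-34640888, plus strand): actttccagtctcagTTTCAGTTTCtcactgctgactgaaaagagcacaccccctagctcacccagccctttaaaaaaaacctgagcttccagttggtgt
Promoters of 43 of the 56 genes were in the table. Of their 57 promoters, 26 (45.6%) held the core, and of the 13 promoters of genes called higher, 5 (38.5%) did, where 3.44% of all promoters did. Of the 7 promoters of genes called lower, 3 (42.9%) held it.

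**Figure D5:**
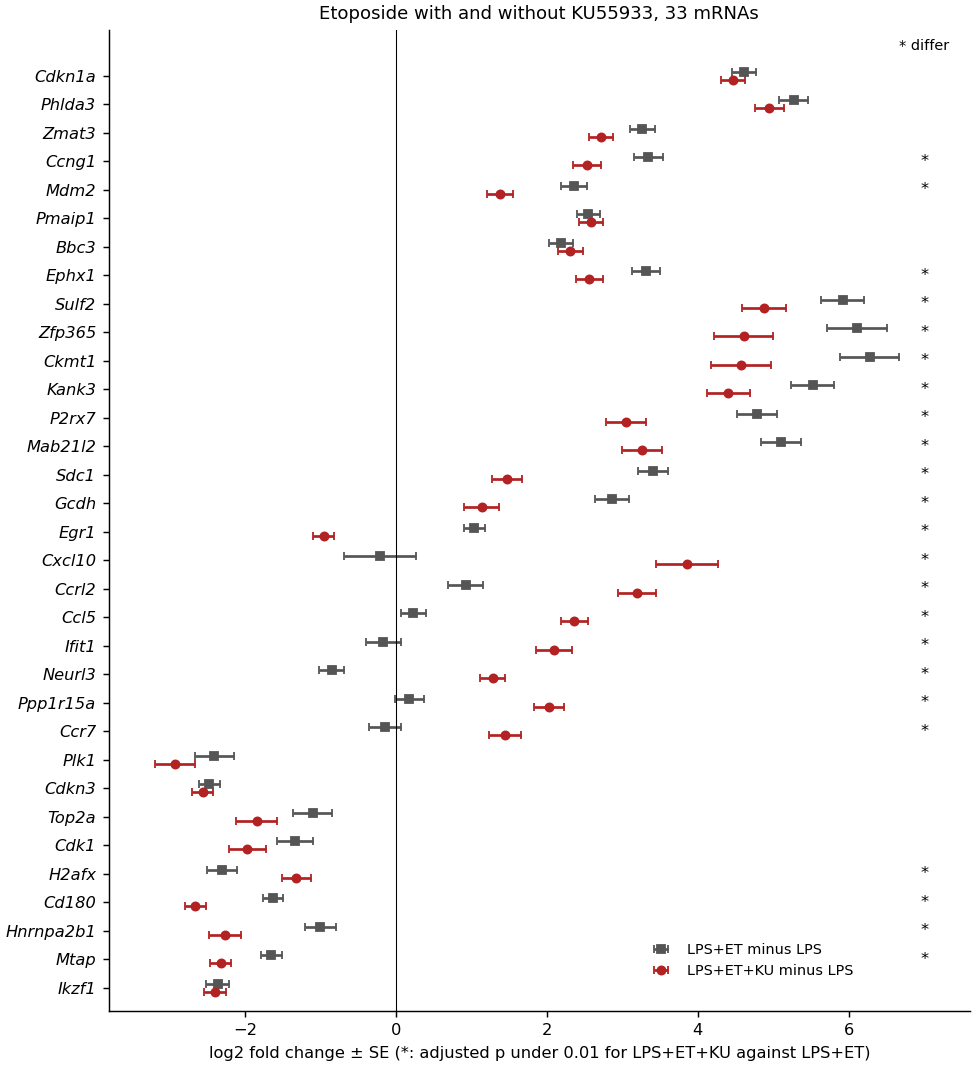
The log2 fold change ± SE against the same LPS gradients is plotted for 33 mRNAs, with grey squares for LPS+ET and red circles for LPS+ET+KU, and a star where the direct contrast of the treated groups was called. Cdkn1a, Pmaip1 and Bbc3 overlap, Mdm2 and Ccng1 are lower with the inhibitor, Egr1 lies on opposite sides of 0, and for Cxcl10, Ccl5 and Ifit1 the red circle lies more than 2 units to the right of the grey square.

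NF-kB and Toll-like receptor targets were called in both directions, 12 higher and 6 lower of 46 (39.1%, beside 28.1% of all genes). Their median was 0.17. Without the block 10 and 1 were called. Ccr7, the lymph node homing receptor, rose from 66.6, 74.5, 78.8 and 95.4 to 174, 342, 202 and 190 CPM and was 1.59 ± 0.21 above etoposide alone (adjusted p = 4.6e-04, and 0.033 without the block). The costimulatory ligand Cd86 rose by 1.44, where etoposide alone gave 0.03 (difference 1.41 ± 0.15, adjusted p = 8.5e-05), whereas Cd80 rose by 1.42 and was 0.76 below etoposide alone (adjusted p = 0.0071, and 0.23 without the block). Ptgs2 (cyclooxygenase 2) rose by 4.13, Il1b by 3.69 from 0.64 CPM and Cd14 by 3.61 from 0.582 CPM. Tnf (-1.60), Ltb (-1.30), Nfkb1 (-0.77) and Cd44 (-0.70) fell, none of which was called without the block (adjusted p = 0.088, 0.21, 0.34 and 0.021), and Nfkb2 (0.64) lost its rise in the same way (adjusted p = 0.097). Cd14 and Il1b are also myeloid genes. Of 16 myeloid markers in the table, 11 were tested and 2, Cd14 and Cd68, were called higher, and the summed level of the list was 716 to 1619 CPM in LPS and 675 to 1026 CPM in LPS+ET+KU. Lyz2 (-0.40, adjusted p = 0.52) and S100a8 (0.13, adjusted p = 0.80) did not pass. The part of other cells in these rises was not tested.

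Genes of the integrated stress response are induced by Atf4 when eIF2α is phosphorylated. Of 41 tested, 7 were called higher and 1 lower (19.5%, below the 28.1% of all genes; 3 and 1 without the block), and the median of 0.16 became -0.03 without pool LUL16. Ppp1r15a (GADD34), which restores eIF2α activity, measured 31.4, 43.7, 22.6 and 40.3 CPM in LPS, 28.2, 76.5, 23.2 and 37.8 CPM in LPS+ET and 149, 148, 86.8 and 171 CPM in LPS+ET+KU. All 4 LPS+ET+KU gradients lay above the rest, with a log2 change of 2.03 ± 0.20 (adjusted p = 4.8e-06) and a difference from etoposide alone of 1.85 ± 0.20 (adjusted p = 8.4e-05, and 0.026 without the block). Cebpb (1.71), Ddit4 (1.62), Ddit3 (CHOP, 1.11) and Slc7a3 (0.80) rose, the last 2 with no call without the block (adjusted p = 0.031 and 0.061). Against LPS+ET, 11 of the 41 were higher and none lower at the threshold, with no call without the block. Over all genes, 353 of 12755 were higher and 458 lower in that contrast. Atf4 itself (1343 ± 171 CPM in LPS, 1554 ± 455 in LPS+ET+KU, adjusted p = 0.46) was 1.33 ± 0.17 above LPS+ET, where it had been called lower, and Chac1 (-0.61 against LPS, adjusted p = 0.021) was 2.08 ± 0.22 above LPS+ET (adjusted p = 3.0e-04 and 8.1e-05, and 0.018 and 0.013 without the block). The Atf4 element TGATGNNAT was found in 5 of 37 promoters of the list (13.5%) and in none of the 8 of genes called higher, where 4.05% of all promoters held it.

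Among lists of growth and metabolism, the share of genes called was highest for cholesterol synthesis (53.6%) and ribosome biogenesis (42%), beside 28.1% of all genes. In cholesterol synthesis and uptake, 15 of 28 genes were called lower and 0 higher (24 lower without pool LUL16, 6 lower without the block), with a median of -0.76 beside -0.91 with etoposide alone. The synthase gene Hmgcs1 fell by 1.80, Fasn by 1.66, Sqle by 1.37, Srebf2, the transcription factor of the pathway, by 0.91, and Fdps by 0.64. Srebf2 and Fdps lost their call without the block (adjusted p = 0.034 and 0.17) and when every fraction had equal weight. Fasn lost its call with equal weight only (limma, adjusted p = 0.013). In ribosome biogenesis, 21 of 50 were lower and 0 higher (9 lower without the block), with a median of -0.63. Without pool LUL16 the median was -0.44, with 30 lower and 1 higher. Nolc1, a nucleolar chaperone, fell from 1228 ± 209 to 583 ± 185 CPM and Heatr1 from 265 ± 37.9 to 110 ± 25.9 CPM. Of 40 genes of endoplasmic reticulum folding, 9 fell and 1 rose (25%), with 2 and 0 without the block and 4 and 0 without pool LUL17. The median was -0.39, and -0.26 without pool LUL16 (12 lower and 1 higher). Pdia6 fell by 0.74 and was 0.72 ± 0.16 below etoposide alone (adjusted p = 0.0076, and 0.046 without the block), and Manf fell by 0.75 with no call without the block (adjusted p = 0.050). Of 36 proteasome genes 8 fell and 1 rose (25%, and 2 and 0 without the block), with Psma6 at -1.23 ± 0.18. The proteasome median was -0.45, and -0.26 without pool LUL16 (12 lower and 1 higher). In the nuclear respiratory chain 8 of 73 fell and 1 rose (12.3%), but the falls numbered 25 without pool LUL16, 22 with DESeq2 and 1 without the block, and 35 genes were lower at an unadjusted p under 0.05. Atp5a1 fell by 0.58 against LPS, with no call without the block (adjusted p = 0.017), and differed from LPS+ET (-0.62 ± 0.12, adjusted p = 0.0051, and 0.056 without the block). Glycolysis and hypoxia genes had 2 rises and 2 falls of 32 (12.5%). Ldha measured 245, 271, 236 and 226 CPM in LPS and 115, 363, 88.3 and 89.6 CPM in LPS+ET+KU, so that LUL16 was opposite to the other 3 pools, and its call was lost without the block (adjusted p = 0.38). Without pool LUL16 the list had 3 rises and 19 falls. Mxi1, a Myc antagonist, rose from 47.5 ± 7.24 to 134 ± 10.6 CPM and was 0.92 ± 0.15 above etoposide alone (adjusted p = 0.0015, and 0.013 without the block). The 70 ribosomal protein genes had 0 calls in either direction in the sum with edgeR (2 higher and 1 lower at an unadjusted p under 0.05, 1 higher with DESeq2, 7 higher and 2 lower without pool LUL16). Their median was 0.13 in the sum and -0.04 with equal weight per fraction, so that no direction can be given for the sum. In light polysomes the median was -0.58, with 27 of 59 called lower and 0 higher. In heavy polysomes it was -0.59, with 21 of 61 called lower and 0 higher. Over all genes, 1208 of 9922 and 1173 of 11368 were called lower in these classes. In monosomes 3 of 67 ribosomal protein genes were called higher and 2 lower. Of 7 mitochondrially encoded genes, mt-Nd6 (1.08) and mt-Co1 (0.99) were called higher, with neither called without the block (adjusted p = 0.063 and 0.061), and the list's sum was 3613 to 53900 CPM in LPS+ET+KU beside 34850 to 56170 CPM in LPS.

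The study follows a few mRNAs as examples of control by the RNA-binding protein Tia1. Trp53, the p53 gene (chr11:69580359-69591873), measured 233, 408, 226 and 342 CPM in LPS, 360, 536, 346 and 438 CPM in LPS+ET and 297, 336, 255 and 278 CPM in LPS+ET+KU. It was higher in pools LUL15 and LUL17 and lower in LUL16 and LUL18, and the log2 change was -0.01 ± 0.14 (adjusted p = 0.95). Against LPS+ET it was -0.50 ± 0.14 (adjusted p = 0.025), short of the threshold. Hif1a (0.15 ± 0.12, adjusted p = 0.33) and H2-K1 (0.56 ± 0.17, adjusted p = 0.016) did not pass, although H2-K1, a class I histocompatibility gene, was higher in each of the 4 pools. Tia1 (-0.31 ± 0.12, adjusted p = 0.055), its paralogue Tial1 (-0.41 ± 0.13, adjusted p = 0.019) and Atm (-0.51 ± 0.19, adjusted p = 0.042) were not called either. The counted 3′ end of Atm lies outside the annotated gene, 2015 bases from the nearest transcript end. Without pool LUL16, H2-K1 (0.47), Tial1 (-0.53) and Atm (-0.78) were called. With equal weight per fraction, limma called Hif1a (0.61, adjusted p = 5.05e-04) and H2-K1 (0.81, adjusted p = 1.25e-04) higher. DESeq2 called H2-K1 (0.54, adjusted p = 0.00298) and Tial1 (-0.43, adjusted p = 0.00545). Within classes, edgeR called H2-K1 in monosomes (0.71) and light polysomes (0.82) but not in heavy polysomes (0.63, adjusted p = 0.016). Without the block H2-K1 was not called (adjusted p = 0.099).

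The share of counts in heavy polysomes was compared for 4 of these mRNAs. For Trp53 it was 77.4, 74.0, 79.6 and 81.8% in LPS and 79.4, 67.8, 80.8 and 78.5% in LPS+ET+KU, a difference of -1.58 percentage points (exact permutation test, two-sided, p = 0.71). For Hif1a the means were 75.3% ± 4.21 and 70.2% ± 5.12 (SD, n = 4, exact permutation p = 0.23), and for H2-K1 82.0% ± 2.53 and 74.4% ± 8.18 (exact permutation p = 0.11). The share of Cdkn1a was higher within each of the 4 pools, 52.7, 42.5, 58.6 and 59.9% in LPS and 63.1, 55.7, 79.2 and 76.2% in LPS+ET+KU, and its difference of 15.1 percentage points had an exact permutation p of 0.086 (adjusted p = 0.23 over the 4 mRNAs). The first 3 differences changed sign when each fraction was scaled to CPM first: Trp53 then had 68.9% ± 1.37 and 77.2% ± 3.36 and Hif1a 67.7% ± 2.02 and 74.1% ± 4.79, both with no overlap (for each, exact permutation p = 0.0286, adjusted p = 0.0571). Paired by pool, the exact sign-flip p was 0.125 for Trp53, Hif1a and Cdkn1a and 0.625 for H2-K1 on this scale, and 0.5, 0.125, 0.25 and 0.125 for Trp53, Hif1a, H2-K1 and Cdkn1a unscaled, where 4 pairs cannot go below 0.125. Scaling removes the difference in fraction totals, and the part of these totals in the unscaled shares was not tested further.

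Genes called in the sum mostly changed alike along the gradient. In monosomes 2068 of 8932 genes were called (23.2%), in light polysomes 2389 of 9922 (24.1%) and in heavy polysomes 2433 of 11368 (21.4%). Of the 1213 genes called higher in the sum that were tested in all 3 classes, 1173 (96.7%) were higher in all 3, and 421 were called in all 3. Of 1526 genes called lower, 1339 (87.7%) were lower in all 3 and 342 called in all 3. The classes are parts of the sum, so these counts are a description. Cdkn1a rose by 3.43 in monosomes, 3.85 in light and 5.05 in heavy polysomes. Psmd14, the deubiquitinase of the proteasome lid, was higher in monosomes (0.51, adjusted p = 0.00345) and lower in heavy polysomes (-0.96, adjusted p = 3.8e-04), and the difference between classes was not tested.

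The labelled cell type was checked against its markers. All 11 B cell markers were in the table, among them Cd79b, Ighm and Igkc, and 1 was called higher and 4 lower (Cd79a, Ms4a1, Ebf1 and Cd22). Pax5 was near the limit of detection (1.44 CPM in LPS). Summed T cell markers were 141 to 178 CPM in LPS and 81.6 to 377 CPM in LPS+ET+KU with 1 of 8 tested called (Cd28, higher). Erythroid markers summed to 60.8 to 70.6 and 23.5 to 172 CPM and platelet markers to 6.83 to 12.5 and 10.5 to 15.2 CPM, with 0 of 1 and 1 of 3 called. NK cell markers summed to at most 1.59 CPM in LPS and 4.45 CPM in LPS+ET+KU. Fewer cells of a type and less RNA per cell cannot be told apart in such sums. Of the 97 named genes, 85 were counted in an untranslated exon and 79 within 100 bases of an annotated transcript end.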

How the data were processed

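Spleen B cells were lysed after cycloheximide (100 µg/ml for 3 min), and 3′ end libraries were made from each fraction of sucrose gradients. The authors deposited raw counts per gene and library in a single table, made per the labels with TopHat2 2.0.12 and HTSeq on mouse build GRCm38, and the labels also name DESeq2 1.6.3. The table held 19600 genes and 157 libraries. By column name, 79 columns matched 1 sample and 78 (pools LUL16 and LUL18) matched a treatment only, so the latter carry the pool of the column name. For each gradient, the counts of its fraction 4 to 16 libraries were added up.

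Genes were tested with edgeR 4.0.16 (R 4.3.3) by the quasi-likelihood test with TMM scaling, an expression filter by treatment and all 12 gradients, with treatment and pool as terms and Benjamini-Hochberg adjustment. The study's methods used no pool term, so the fit without it is an alternative. Deviations of LPS and LPS+ET+KU gradients correlated at 0.419 to 0.75 within the 4 pools and at -0.664 to 0.257 between pools (9376 genes), and the pairing comes from the column names. Limma 3.58.1 on log2(mean fraction CPM + 1), which weights fractions equally, and DESeq2 1.42.0 were alternatives. In simulated counts for this contrast (12755 genes), 60% of 2-fold and 95% of 4-fold changes were recovered with 1 false call of 156. The simulation changed 100 genes at each size and drew pool effects independently per gene, alike in all treatments. No simulated pool responded apart from the others, so the false call rate need not hold for the data. Shares were tested by exact permutation, two-sided, unpaired and by sign flips within pools. Intervals cover counting error only.

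The comparison, gene lists and tests were chosen with earlier results of these data known. Named were the mRNAs the study follows, the 12 largest rises and falls called with and without the block, the 5 highest and lowest called differences from LPS+ET, and 3 called members of highest mean CPM per list. Rises and falls had to be protein coding, of the same sign in all pools, and at 10 CPM and 20 counts or more in the higher group. Other list members were named after their values were seen. Of 19600 genes, 19277 matched GENCODE M21 by identifier, and promoter sequences are RefSeq's (GRCm38.p6). The file's coordinates count from 0 and are given from 1. Figures were drawn with matplotlib 3.10.9. Results for some genes are not reported here.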

Additional observations from a re-analysis of the deposited data

Results flagged for a closer look

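Of 200 groups of 4 gradients, 12 had a gradient whose gap to its nearest neighbour took more of the group's range than Dixon's 95% critical value, where chance gives about 1 in 20. In LPS+ET+KU the gap was 0.899 for Sulf2, 0.878 for Pif1, 0.856 for Plk1, 0.851 for Cxcl10, 0.855 for Gpx1, 0.903 for Ldha, 0.862 for Irf8 and 0.835 for Ccr7, each with pool LUL16 as the gradient apart. It was 0.877 for Sdc1, with LUL15 apart, and 0.921 for Nr4a1, with LUL17 apart. In LPS it was 0.954 for Nr4a1 and 0.892 for Junb. The proteasome gene Psmd14 moved in opposite directions along the gradient, by 0.51 in monosomes (adjusted p = 0.00345) and by -0.96 in heavy polysomes (adjusted p = 0.000383), and the difference between classes was not tested. A library of fraction 17 of an LPS gradient, outside the fractions summed, held 777 counts.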

How the results depend on the processing

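Beside the 3589 calls, the fit without the replicate block made 1361, an adjusted p under 0.05 gave 5649 and limma with equal weight per fraction 2334 (1859 of them shared), and leaving out gradients or pools gave 1755 (without pool LUL15) to 5444 (without LUL16), with 2062 without LUL17 and 1819 without LUL18. In the same order of settings, monosomes had 532, 3223 and 612 calls (leave-out range 1248 to 2402, lowest without LUL15 and also low, at 1272, without LUL18). Light polysomes had 707 and 3866, with 1275 in the 8 compared gradients alone (range 1221 to 2719, with 1402 and 1497 without LUL17 and LUL18). Heavy polysomes had 904 and 4086 (range 953 to 4072, lowest without LUL18 and highest without LUL16). The 449 genes that also differed from LPS+ET became 35 without the block, 1184 at 0.05, 166 with equal weight and 725 with DESeq2 (range 52 to 1677, and 699 without the LPS+ET gradient of LUL16, an alternative chosen after seeing the data). Leave-out fits held fewer gradients, and the cause of the rise without LUL16 was not tested. Among 97 named genes, 32 lost their call without the pool block and 21 with equal weight, and leaving out pools LUL15, LUL16, LUL17 and LUL18 ended 31, 0, 23 and 27 calls. Equal weight gained 2 calls, Hif1a (0.61) and H2-K1 (0.81). The sign of Trp53 turned to 0.08 with a mean of 50 or more counts and to 0.37 with equal weight (leave-outs -0.18 to 0.08), and that of Atm to 0.16 with equal weight, none of which was a call in the report. Heavy shares turned to 8.33 (Trp53), 6.43 (Hif1a) and 1.48 (H2-K1) percentage points with each fraction at CPM. Leave-out ranges were -2.98 to 1.35 for Trp53, -11.1 to -4.44 for H2-K1 and 11.5 to 19.4 for Cdkn1a, of which 1.35 (Trp53, without LPS+ET+KU LUL16), -11.1 (H2-K1, without LPS+ET+KU LUL17) and 19.4 (Cdkn1a, without LPS+ET+KU LUL16) changed sign or passed 0.05. Low counts limit the largest folds.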
